A study of Mus musculus with 6 samples.

Results

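The 10 genes *Tfam*, *Polg*, *Polg2*, *Polrmt*, *Tfb1m*, *Tfb2m*, *Ssbp1*, *Mgme1*, *Vdac1* and *Vdac2* pack, copy and transcribe mitochondrial DNA (mtDNA) or form the outer membrane pores through which fragments of it can leave the organelle. They were chosen by symbol from a table of 19831 genes, and all 10 were listed. The transcripts of inguinal adipose tissue (iAT) were sequenced in mice at postnatal day 6, and 3 wild-type samples stood against 3 samples of Npffr1-KO mice, which lack the neuropeptide FF receptor 1. The labels name no strain, sex or treatment, and whether the mice lack the receptor in every cell is not given in the sources used here, nor is it said that each sample is a separate animal, so p-values measure the spread between these samples. The comparison asks which transcripts of iAT differ when the receptor is missing.

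mtDNA is a small circular genome that is held in protein-coated bodies, the nucleoids, inside the mitochondrial matrix. A nuclear-encoded polymerase copies it, a separate RNA polymerase transcribes it, and the packaging protein TFAM serves both processes. mtDNA that reaches the cytosol binds cyclic GMP-AMP synthase, and the cyclic dinucleotide this enzyme makes activates STING, the protein encoded by *Sting1*. Fat cells that burn fuel for heat hold many mitochondria, so that iAT of young mice is a tissue in which both the supply and the sensing of mtDNA have been of interest.

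The authors give 1 normalized count per gene and genotype. The ratio of both values is a fold change that has been drawn towards 1 for genes with few reads, so it is described here without a test. Whole reads of each library were recovered from the values for 6 of the 10 genes, namely *Tfam*, *Polg2*, *Polrmt*, *Tfb1m*, *Tfb2m* and *Mgme1*. The libraries could be tied to a genotype but not to a sample number, and they are called A, B and C for wild-type and D, E and F for Npffr1-KO. Their size factors, which scale each library to a common depth, lay between 0.916 in library D and 1.04 in libraries C and F. *Npffr1* itself held 5, 0 and 1 reads in libraries A, B and C and 0 in each Npffr1-KO library, where a count of 0 allows up to 3 counts, so the targeted gene was near the limit of detection in both genotypes.

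The libraries differed in their relation to gene length, with library D farthest from the others in long genes. In genes shorter than 1000 bases the median deviation from the mean of all 6 libraries, on the log2 scale, was -0.07, -0.18 and -0.05 in A, B and C and 0.17, -0.07 and 0.02 in D, E and F. In genes of 5000 bases and longer it was 0.09, 0.11 and -0.01 in A, B and C and -0.27, 0.00 and -0.05 in D, E and F. In short genes wild-type library B and Npffr1-KO library D deviated most, in opposite directions. The authors' ratios showed the same trend. The median log2 ratio of Npffr1-KO over wild-type was 0.27 in the shortest of 20 length classes and -0.15 in the longest, and the values of genes of like length are therefore given beside those of the mtDNA genes.

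The mtDNA genes covered a wide range of levels in wild-type iAT, and the pores stood far above the replication and transcription genes. Levels between genes are compared per 1000 bases of gene length. *Vdac2* had 2684 normalized counts per 1000 bases and *Vdac1* 2035, at the 96.9 and 95.7 percentiles of all listed genes. Both encode voltage-dependent anion channels, the main route for metabolites across the outer membrane. The third channel of the family, *Vdac3*, had 1867 per 1000 bases. *Vdac1* and *Vdac2* together held 62.0% of the normalized counts of the 10 genes, and the 10 genes held 0.0599% of all counts in wild-type libraries and 0.0661% in those of Npffr1-KO.

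*Ssbp1*, which coats single-stranded mtDNA during replication, followed with 545 normalized counts per 1000 bases in wild-type. *Tfb2m*, the factor that opens the promoter for the mitochondrial RNA polymerase, had 370 ± 26.6 (SD, n = 3), and *Polg*, the catalytic subunit of the replicative polymerase, had 348. *Tfam* had 181 ± 12.0 (SD, n = 3) and *Polrmt*, the mitochondrial RNA polymerase, 181 ± 9.29 (SD, n = 3). The ratio of *Tfam* to *Polrmt* per base lay between 0.909 and 1.16 in the 6 libraries, so that these neighbours in the order did not differ beyond their spread. *Tfb2m* lay above both in every library, at 1.90 to 2.27 times *Polrmt* and 1.82 to 2.29 times *Tfam*.

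The lowest levels belonged to *Mgme1* with 107 ± 12.7, *Tfb1m* with 90.0 ± 10.9 and *Polg2* with 87.6 ± 13.7 normalized counts per 1000 bases in wild-type (SD, n = 3 each). *Mgme1* encodes a nuclease that trims the ends of newly made mtDNA. *Tfb1m* encodes a methyltransferase that modifies mitochondrial ribosomal RNA, and *Polg2* the accessory subunit that holds the polymerase on its template. Their ranges overlapped, and the order of *Mgme1* and *Polg2* was turned in 1 of 6 libraries. The order of *Tfb1m* and *Polg2* was turned in 2 of 6. The catalytic subunit *Polg* had 3.98 times the level of the accessory subunit *Polg2* per base in wild-type and 4.64 times in Npffr1-KO. For the paralogs *Tfb2m* and *Tfb1m* the ratio was 3.69, 4.46 and 4.26 in libraries A, B and C and 2.78, 3.81 and 3.26 in D, E and F. The ranges of the genotypes overlapped between 3.69 and 3.81.

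**Figure D1:**
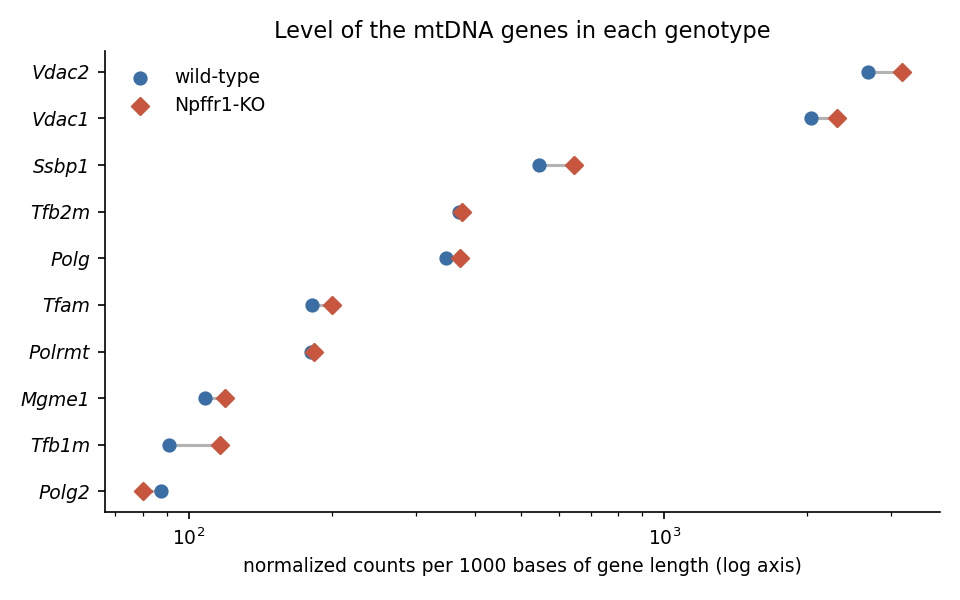
Authors' value of each mtDNA gene in wild-type (circles) and Npffr1-KO (diamonds), in normalized counts per 1000 bases of gene length on a log axis, 1 value per genotype. *Vdac2* and *Vdac1* lie at 2035 or above in both genotypes, the other 8 genes lie at 645 or below, and *Polg2* is the gene whose Npffr1-KO value is the lower one.

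Between the genotypes, 9 of the 10 genes had a higher value in Npffr1-KO, by small amounts. The median log2 ratio of the 10 genes was 0.15, against 0.01 over the 15309 genes whose mean reached 10 normalized counts, of which 7835 had the higher value in Npffr1-KO. The ratios ran from -0.13 for *Polg2* to 0.35 for *Tfb1m*. Measured against genes of like length the median was 0.13, and *Tfb2m* then fell on the other side of 0, at -0.01. A log2 ratio of at least 0.32 was reached by 1 of the 10 genes, *Tfb1m*, upwards and by 0 downwards. Of all 15309 genes, 12.0% reached it upwards and 11.6% downwards. Against genes of like length *Tfb1m* lay at 0.24. By that measure 0 of the 10 genes reached 0.32 in either direction, beside 1255 of all 15309 genes upwards and 1773 downwards.

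No difference between the genotypes was called for the 6 genes with reads, of which *Tfb1m*, *Polg2* and *Mgme1* were within the range of means fitted with limma. limma with Benjamini-Hochberg adjustment, which was run on genes with a mean of 10 to 150 normalized counts, called 0 of 3512 genes (0%) at an adjusted p under 0.05 and found 460 at an unadjusted p under 0.05. In a wider fit up to a mean of 350, added after the data were seen, 18 of 5622 genes were called, 7 of them higher in Npffr1-KO (0.125%), and 852 had an unadjusted p under 0.05. *Tfam*, *Polrmt* and *Tfb2m* had the exact permutation test of 3 against 3 libraries alone, which cannot go below p = 0.1 and so could not have passed a threshold of 0.05. The groups separated for 0 of the 6 genes. Over the 5622 genes, all 3 Npffr1-KO libraries lay above all wild-type libraries for 9.18% and below them for 11.2%. *Tfam*, *Polrmt* and *Tfb2m* had means above the range of those genes, and 6 genes are too few to be told apart from these shares.

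*Tfam*, which bends and coats mtDNA and starts its transcription, had 765, 684 and 683 normalized reads in libraries A, B and C and 786, 750 and 819 in D, E and F. Library A, the highest of wild-type, lay above library E, and otherwise the Npffr1-KO libraries were the higher ones. The means were 711 ± 47.1 and 785 ± 34.7 (SD, n = 3 each), a difference of 0.14 ± 0.0655 (SE) on the log2 scale with an exact two-sided permutation p of 0.2. The reads of *Tfam* are the likeliest of 218 combinations that match the deposited mean and roughly the ratio, with 0.985 of the weight. This weight counts how likely the spread between libraries is under an assumed spread. The SD, SE and p-value of *Tfam* therefore rest in part on that assumption. The same holds for *Polrmt*, *Tfb2m* and *Mgme1*, with 91, 375 and 3 combinations. *Tfam* lies on chromosome 10, as does *Npffr1*, with 162 RefSeq genes between them, and *Polrmt* lies on the same chromosome with 389 between.

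Among the replication genes, *Mgme1* had 262, 312 and 331 normalized reads in A, B and C and 358, 312 and 338 in D, E and F. The wild-type libraries spread further from each other than the means of the genotypes did. The means were 302 ± 35.8 and 336 ± 23.1 (SD, n = 3 each), and limma gave a log2 difference of 0.16 ± 0.139 (SE) with an adjusted p of 0.622 in the wider fit. *Polg2* had 151, 129 and 110 normalized reads in wild-type and 121, 114 and 119 in Npffr1-KO. All 3 Npffr1-KO values lay inside the wild-type range, with means of 130 ± 20.4 and 118 ± 3.71 (SD, n = 3 each). The log2 difference of *Polg2* was -0.13 ± 0.187 (SE) with an adjusted p of 0.831 by limma.

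Reads per library were not found for *Polg* and *Ssbp1*. *Polg* stood at 1600 normalized counts in wild-type against 1704 in Npffr1-KO, a log2 ratio of 0.09, and lay 0.19 above the median of genes of like length. *Ssbp1* had 814 and 963, a log2 ratio of 0.24, which lay 0.13 above genes of like length. *Ssbp1* is among the shortest of the 10 genes with 1493 bases and *Polg* is the longest with 4596, and the length trend moved their ratios in opposite directions. The spread between libraries behind these values is unknown.

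In the transcription genes, *Polrmt* and *Tfb2m* had nearly the same values in both genotypes. *Polrmt* had 662, 660 and 721 normalized reads in A, B and C and 652, 657 and 756 in D, E and F, with means of 681 ± 35 and 688 ± 58.2 (SD, n = 3 each) and an exact permutation p of 1.0. *Tfb2m* had 889, 849 and 976 normalized reads in wild-type and 962, 858 and 934 in Npffr1-KO. Its means were 905 ± 65.2 and 918 ± 54.0 (SD, n = 3 each), with an exact permutation p of 0.9. In both genes the libraries of the genotypes interleaved, and the log2 differences were 0.01 ± 0.0807 (SE) for *Polrmt* and 0.02 ± 0.0774 (SE) for *Tfb2m*.

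*Tfb1m* had the largest ratio of the 10 genes, 0.35 by the authors' values and 0.24 against genes of like length. It had 134, 106 and 127 normalized reads in A, B and C and 192, 125 and 159 in D, E and F. Libraries D and F lay above every wild-type library, and library E lay between B and C. The means were 122 ± 14.8 and 159 ± 33.4 (SD, n = 3 each), and limma gave a log2 difference of 0.36 ± 0.195 (SE) with an adjusted p of 0.453. Without library D the difference was 0.21 with an adjusted p of 0.694, and without library E it was 0.52 with an adjusted p of 0.274. Without wild-type library B it was 0.26 with an adjusted p of 0.806.

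**Figure D2:**
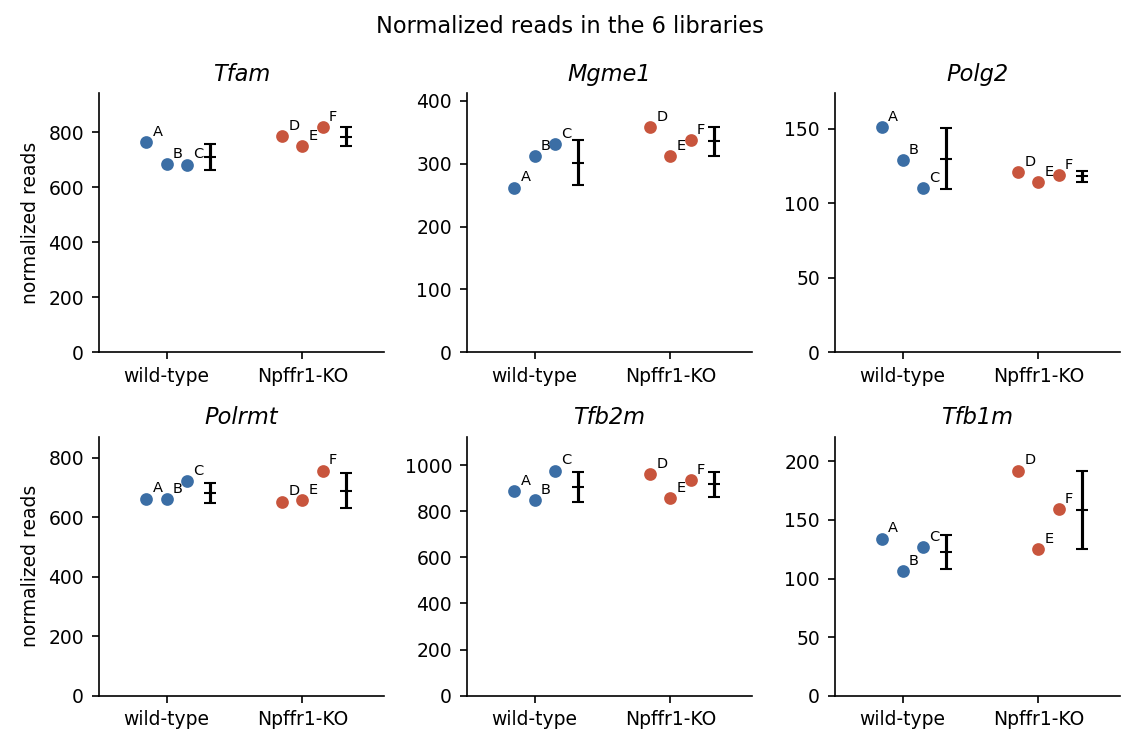
Normalized reads of 6 mtDNA genes in wild-type libraries A, B and C and Npffr1-KO libraries D, E and F, each axis starting at 0, with mean and SD of the 3 libraries as bars. The libraries of the genotypes overlap in all 6 panels, and relative to its mean the widest spread within Npffr1-KO is that of *Tfb1m*, from 125 to 192.

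The Npffr1-KO libraries differed among themselves in a like order across these genes. Library E was the lowest of the 3 for 5 of the 6 genes, all but *Polrmt*, and for 19 of 31 other genes of the mitochondrial lists described below. Over all 5622 genes with a mean of 10 to 350 it was the lowest for 29.8%. *Tfam*, *Polrmt*, *Tfb2m* and part of the list genes had means above that range. The part of library composition in this was not tested.

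The outer membrane channels had higher values in Npffr1-KO. *Vdac1* stood at 4143 normalized counts in wild-type against 4707 in Npffr1-KO, a log2 ratio of 0.18, and *Vdac2* had 4460 and 5254, a log2 ratio of 0.24. *Vdac3* had 2652 and 2957, a log2 ratio of 0.16. Relative to genes of like length the 3 values were 0.11, 0.12 and 0.05. Reads per library were not found at these levels, and no test was run on these genes here. Among the 200 genes nearest in mean, 73.0% lay below *Vdac1* and 82.5% below *Vdac2* in their ratio. *Vdac2* lies on chromosome 14, where 2 of its 10 nearest measured genes reached a log2 ratio of -0.32 or lower and 1 reached 0.32 upwards, beside the 11.6% and 12.0% of all genes. *Lrmda* stood at -2.46 and *Comtd1* at 0.49, and both were named after their values were seen.

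**Figure D3:**
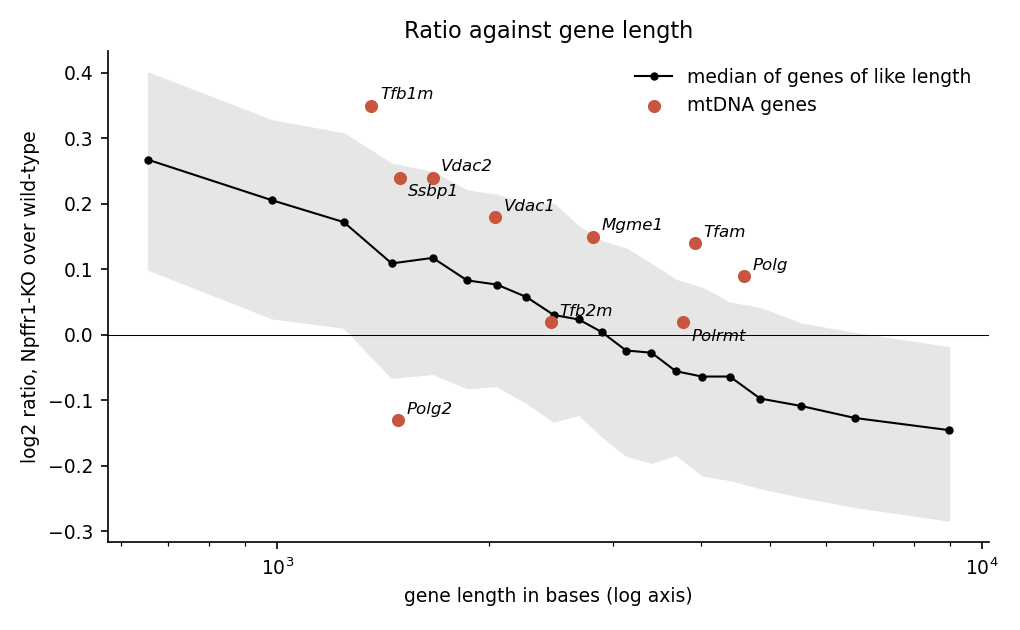
Log2 ratio of the authors' values, Npffr1-KO over wild-type, against gene length in bases on a log axis, with the 10 mtDNA genes as points, the median of 20 length classes as a line and the middle 50% of each class as a band. The class medians run from 0.27 to -0.15. *Tfb1m*, *Tfam*, *Polg* and, by a small margin, *Mgme1* lie above the band, and *Polg2* lies below it.

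Other genes of mtDNA upkeep were described in lists, by the authors' values. Each count stands beside the 15309 genes whose mean reached 10. Of these, 7835 had the higher value in Npffr1-KO, and 12.0% reached the log2 ratio of 0.32 upwards and 11.6% downwards. Of 10 replication and repair genes, 8 had the higher value in Npffr1-KO, 1 reached the log2 ratio of 0.32 upwards and 0 downwards, and the median was 0.12. *Lig3*, the DNA ligase of mitochondria, had the highest wild-type value of the list at 751 normalized counts and the lowest ratio at -0.05. *Endog*, a nuclease of the intermembrane space, had the highest ratio at 0.51, with 340 and 485 normalized counts. *Twnk*, the helicase that works with POLG, had 315, 320 and 321 normalized reads in A, B and C and 307, 293 and 393 in D, E and F, so the genotypes overlapped. *Top1mt*, the mitochondrial topoisomerase, had 219, 229 and 253 against 258, 311 and 296, without overlap, at an adjusted p of 0.362 by limma. All 3 Npffr1-KO libraries lay above all wild-type libraries for 9.18% of the 5622 genes with a mean of 10 to 350.

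Of 16 genes that transcribe mtDNA or handle its transcripts, 14 had the higher value in Npffr1-KO and the median was 0.20. The log2 ratio of 0.32 was reached upwards by 3, beside 12.0% of all genes, and by 1 against genes of like length. *Slirp*, which binds mitochondrial messenger RNA, had the highest ratio at 0.40 and *Mterf1b* the lowest at -0.13. *Slirp* had 412, 367 and 485 normalized reads in wild-type and 659, 441 and 586 in Npffr1-KO, and library E again lay inside the wild-type range. It is a gene of 427 bases, and against genes of like length its ratio was 0.13. *Tefm*, the elongation factor of the mitochondrial RNA polymerase, had 128, 136 and 168 against 229, 131 and 192. *Hsd17b10*, a subunit of the enzyme that trims mitochondrial transfer RNA, had the highest wild-type value at 1659 normalized counts and a ratio of 0.19.

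Among 5 nucleoid proteases and partners the median log2 ratio was 0.10. *Lonp1*, the protease that degrades free TFAM, had the highest wild-type value, 1956 normalized counts against 2093 in Npffr1-KO. *Atad3a*, a membrane protein that binds nucleoids, had 1187 and 1509, a ratio of 0.35, and the antisense transcript *Atad3aos* had the lowest ratio at -0.19. The sources used here do not say whether counting used the strand, so reads of this pair cannot be told apart.

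Of 13 genes of mitochondrial nucleotide supply, 11 had the higher value in Npffr1-KO. The log2 ratio of 0.32 was reached upwards by 3, beside 12.0% of all genes, and by 4 against genes of like length. *Sucla2*, a succinyl-CoA ligase subunit whose loss depletes mtDNA, had 2181 and 4072 normalized counts, a ratio of 0.90. *Slc25a33*, a carrier of pyrimidine nucleotides, had 161, 147 and 182 normalized reads in wild-type and 267, 193 and 249 in Npffr1-KO, without overlap and with an adjusted p of 0.196 by limma. *Slc25a36*, a carrier of the same substrates, had the lowest ratio at -0.27. It had 447, 537 and 494 normalized reads against 335, 444 and 439, also without overlap but lower in Npffr1-KO. Of the 5622 genes with a mean of 10 to 350, 9.18% separated upwards and 11.2% downwards. *Samhd1*, which degrades nucleotides, had the highest wild-type value of the list at 4567.

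Regulators of mitochondrial biogenesis split into 3 genes with higher values and 5 with nearly level ones. *Ppargc1b*, a coactivator of mitochondrial gene programs, had 176, 210 and 206 normalized reads in A, B and C and 370, 303 and 460 in D, E and F. Every Npffr1-KO library lay above every wild-type library, as in 9.18% of the 5622 genes with a mean of 10 to 350. The wider fit called 7 of these genes higher in Npffr1-KO (0.125%), *Ppargc1b* among them. limma in the wider fit gave a log2 difference of 0.92 ± 0.170 (SE) with an adjusted p of 0.0405, and leaving out 1 library at a time gave 0.77 to 1.07. The call was lost without any of libraries A, B, C, D and F (adjusted p of 0.133, 0.21, 0.0576, 0.0642 and 0.105) and was kept without E (adjusted p of 0.0236). Without the mean-variance trend of the fit the adjusted p was 0.24. *Ppargc1a*, the related coactivator, had 154, 116 and 126 against 237, 162 and 337 normalized reads, with a log2 difference of 0.84 ± 0.243 (SE) and an adjusted p of 0.128. *Esrra*, a nuclear receptor that binds both, had 876 and 1293 normalized counts, a ratio of 0.56.

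The DNA-binding factors for which many mtDNA genes are known to carry sites had nearly the same values in both genotypes. *Nrf1*, nuclear respiratory factor 1, had 778, 765 and 702 normalized reads in wild-type and 763, 707 and 786 in Npffr1-KO. *Gabpa*, the ETS-family subunit of nuclear respiratory factor 2, had the lowest ratio of the 8 regulators at -0.11, with 1379 and 1282 normalized counts. *Gabpb2*, a partner of GABPA, had the highest wild-type value at 1473.

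The letters of these factors' core motifs were looked up in RefSeq promoters (GRCm38.p6, 250 bases before to 50 after each gene start), which were matched for 9 of the 10 genes, all but *Vdac2*. The ETS core CCGGAA was present on either strand in 7 of the 9 genes, against 16.7% of 27025 genes with a promoter and 28.1% of the 12068 among them with a mean of at least 10 counts. The NRF1 core CGCATGCG, which reads the same on both strands and does not overlap the ETS core, was present in 1 of the 9, *Tfb2m*, against 2.07% of all and 3.82% of measured genes. Stretches of 30 bases are shown to let the sites be compared, 5′ to 3′ on the strand of the gene, with the core in capitals. Where the core lies on the opposite strand its capitals read TTCCGG.
Tfam, chr10:71238074-71238103, minus strand: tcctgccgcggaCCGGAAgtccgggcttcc
Polg, chr7:79466294-79466323, minus strand: ggaggacctcacCCGGAAgtccctctgcac
Polg2, chr11:106779548-106779577, minus strand: cgggtgacgctcTTCCGGgggcgtggtcta
Polrmt, chr10:79746606-79746635, minus strand: ccctaagagcgcTTCCGGcagtcgcagaac
Tfb1m, chr17:3557819-3557848, minus strand: cagtttcgtcatTTCCGGcaggtttctcca
Ssbp1, chr6:40471409-40471438, plus strand: gggctccgtgcgCCGGAAgcgagccgctgg
Vdac1, chr11:52360734-52360763, plus strand: ccgctctgtgtgCCGGAAgctcccctcccc
Tfb2m, chr1:179546246-179546275, minus strand: gctaggtcgttCGCATGCGccattcgtaat

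In *Tfam*, *Polg*, *Polg2*, *Polrmt* and one of 2 sites of *Ssbp1* the ETS core began 47, 38, 28, 42 and 47 bases before the gene start. In *Tfb1m* it began 81 bases before the start and in *Vdac1* 105. *Mgme1* held neither set of letters in this window. *Tfb1m* and *Polg2*, the genes with the highest and the lowest ratio between the genotypes, both held the ETS core. The matches describe letters, and no binding was measured.

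Genes of the outer membrane and of permeability had a median log2 ratio of 0.21. Of 13 genes 12 had the higher value in Npffr1-KO, beside 7835 of all 15309 genes. The log2 ratio of 0.32 was reached upwards by 4, beside 12.0% of all genes, and by 3 against genes of like length. *Ppif*, the cyclophilin that opens the permeability transition pore, had the highest ratio at 0.70, with 528 and 856 normalized counts. *Bax* and *Bak1*, which form the pores of apoptosis, had 1018 and 1247, and 2010 and 2320. *Hk1*, a hexokinase that docks on VDAC, had the lowest ratio at 0.00. *Mcl1*, an inhibitor of BAX and BAK1, had the highest wild-type value at 7517. Of 6 fusion and fission genes 0 reached the log2 ratio of 0.32, with *Opa1* lowest at 0.01 and *Fis1* highest at 0.22. *Mfn2*, a fusion protein, had the highest wild-type value there, 3719 normalized counts.

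Downstream of mtDNA release, 7 of 9 cytosolic DNA sensing genes had the higher value in Npffr1-KO. The log2 ratio of 0.32 was reached upwards by 2, beside 12.0% of all genes, and by 1 against genes of like length. *Cgas*, the sensor of cytosolic DNA, had 246, 187 and 233 normalized reads in wild-type and 187, 235 and 286 in Npffr1-KO, which overlapped. *Sting1* had 1388 and 1694 normalized counts, a ratio of 0.29. *Zbp1*, a sensor of Z-form nucleic acids, had the highest ratio of the list at 0.48. It had 311, 251 and 270 normalized reads against 442, 354 and 380, without overlap and with an adjusted p of 0.122 by limma in the wider fit. Of the 5622 genes in that fit, 9.18% separated upwards. *Tbk1*, the kinase downstream of STING, had the lowest ratio at -0.13, and *Irf3*, the factor this kinase activates, the highest wild-type value at 1640.

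The amount of mitochondria was not measured. Of 10 nuclear genes of mitochondrial content, 10 had the higher value in Npffr1-KO. Of these, 8 reached the log2 ratio of 0.32 upwards, beside 12.0% of all genes. Against genes of like length 4 of the 10 reached it, beside 1255 of all 15309 genes. The median log2 ratio of the 10 content genes was 0.38, against 0.15 for the 10 mtDNA genes. *Cycs*, cytochrome c, had the highest ratio at 0.65, *Tomm20*, an import receptor of the outer membrane, the lowest at 0.05, and *Atp5f1a*, a subunit of ATP synthase, the highest wild-type value, 15519 normalized counts. Relative to genes of like length the medians were 0.32 and 0.13. The 13 messenger RNAs encoded by mtDNA itself were not analysed here.

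**Figure D4:**
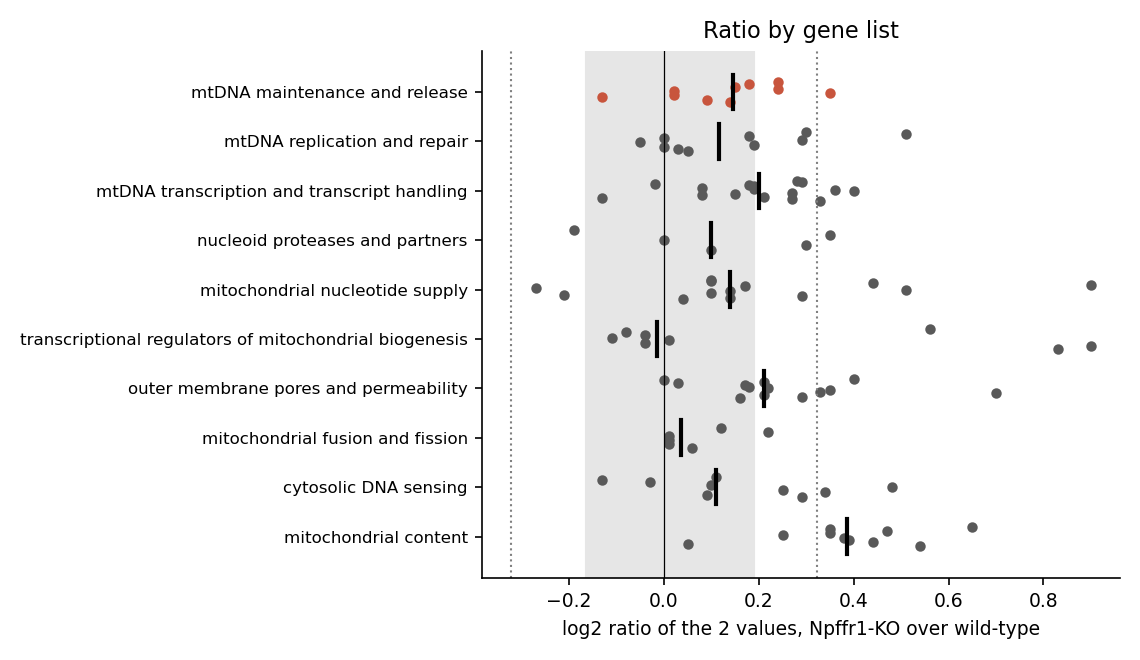
Log2 ratio of the authors' values, Npffr1-KO over wild-type, for each gene (points) of 10 gene lists, with the list median as a bar, the middle 50% of all genes whose mean reached 10 as a band and dotted lines at a log2 ratio of 0.32 to either side. The 10 mtDNA genes have a median of 0.15 and 1 gene past the line, and the mitochondrial content genes a median of 0.38 and 8 past it.

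Marker lists of the cell types in iAT, which were described and not tested, differed in how their values stood between the genotypes. All 7 adipocyte markers were present, with *Fabp4* at 156285 normalized counts in wild-type, and the list summed to 376934 in wild-type against 408652 in Npffr1-KO, with 1 of 7 past the log2 ratio of 0.32 upwards and *Adipoq* and *Retn* at -0.07 each. Of the 6 thermogenic adipocyte markers with a mean of at least 10, 5 reached the log2 ratio of 0.32 upwards, and 6 reached it against genes of like length. These markers summed to 1671 and 5621, while *Elovl3* lay below 1 count in both genotypes. The T cell markers summed to 5147 and 8426, with 5 of 5 past the ratio upwards, also against genes of like length. Endothelial markers summed to 51024 and 40211 and fibroblast markers to 568414 and 457825, with 3 of 4 and 2 of 4 past the ratio downwards. Against genes of like length 1 of 4 and 0 of 4 passed it downwards, with medians of -0.3 and -0.21. Skeletal muscle markers with a mean of at least 10 summed to 508 and 898, with 6 of 7 past the ratio upwards, also against genes of like length. The main search and the search with the ratio found no reads per library for these 7 genes, so their spread is unknown. *Pvalb*, below that mean, had 4.96, 2.94 and 2.90 normalized reads in A, B and C and 0, 2.02 and 24.1 in D, E and F. Macrophage markers summed to 17732 and 20614, of which *Lyz2* held 9262 and 11951, and 3 of the 6 had the higher value in Npffr1-KO. B cell markers summed to 8386 and 9958 and proliferation markers to 8143 and 9326. Of 5 mammary epithelium markers, *Krt18* and *Epcam* had a mean of at least 10 and summed to 47.5 and 54.2. *Krt18* had 18.8 and 17.9 normalized counts and *Epcam* 28.7 and 36.4. The part of these cell types in the ratios of the mtDNA genes was not tested, and in whole tissue fewer cells of a type and less RNA per cell cannot be told apart.

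Several of the 10 genes share sequence with other transcripts, over which counting could have split reads. Of the distinct sequences of 31 bases in the GENCODE M21 transcripts of *Tfb2m*, 36.4% also occurred in other genes, first among them *Gm1818*. The share was 10.1% for *Tfb1m*, 7.76% for *Vdac1*, 7.42% for *Polg*, 7.27% for *Vdac2*, 6.41% for *Polg2*, 5.42% for *Mgme1*, 2.62% for *Ssbp1*, 0.632% for *Tfam* and 0% for *Polrmt*. The level of *Tfb2m* is therefore uncertain.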

How the data were processed

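RNA of iAT was extracted with TRIzol and sequenced in 3 wild-type and 3 Npffr1-KO samples, grouped by their labels. The submitters' processing notes name Bowtie2, RSEM and DESeq2. Their versions, the build and the annotation: not given in the sources used here. The deposited table holds, as a signal, 1 normalized count per gene and genotype made by the authors, beside the gene length, and it has their own fold changes and p-values, which were not used. A second table, with a subset of 90 genes, was not used. The values of all genes sum to 23137343 in wild-type and 23640005 in Npffr1-KO, and totals of single libraries are unknown beyond their size factors.

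Values of genes that hold 1 read take 6 levels, which give the size factors of the 6 libraries and their genotypes. Combinations of whole reads that match the mean of both values were searched with sympy 1.14.0 and numpy 2.4.6 for genes with a mean of up to 150, and exactly 1 was found for 3512 of 3781 genes with a mean of 10 to 150 (92.9%). The search misses genes whose libraries differ widely. A search that also used the ratio, taken as a fold change with a normal prior of variance 0.5, added after the data were seen, found reads for 5622 of 5887 genes with a mean of 10 to 350 and for list genes up to 1000 where 1 combination held at least 0.98 of the weight. Both searches were tested on simulated data. The weight in the second search also counts how likely the spread between libraries is under an assumed spread. The SD, SE and p-values of genes found by it rest in part on that assumption. Normalized reads, as log2(value + 1), were compared with limma 3.58.1 in R 4.3.3 with a mean-variance trend and Benjamini-Hochberg adjustment over all genes fitted, and single genes with an exact two-sided permutation test. No count model was run, as the reads are recovered for part of the table.

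Ratios of the deposited values were described for genes with a mean of at least 10. The 10 genes, the lists and the motifs were chosen with earlier results of these data known. Named were the 10 genes, *Npffr1*, *Vdac3* and, of each list, the gene with the highest wild-type value, the highest and the lowest ratio, while other genes were named after their values were seen. Symbols were matched directly or through RefSeq gene identifiers.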

Additional observations from a re-analysis of the deposited data

How the results depend on the processing

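The median log2 ratio of the 10 mtDNA genes was 0.15 and lay between 0.13 and 0.15 when centred on the median of all genes, centred on genes of like length, or computed with a pseudocount of 10. Centring on genes of like length left 8 in place of 9 genes with the higher value in Npffr1-KO. Of the 10 mtDNA genes and 90 list genes together, 26 reached the ratio threshold in either direction, 0 of them downwards. Of all 15309 genes, 12.0% reached it upwards and 11.6% downwards. The count for the mtDNA and list genes was 61 at 1.1-fold and 5 at 1.5-fold. A minimum mean of 50 or none left 26 and both centrings 24 and 18. The median percentile of the 10 genes in wild-type was 67.3 and became 57.6 among genes with a mean of at least 10. In the fit up to a mean of 150, limma called 0 genes under the other pseudocounts, minimum means, centrings, trend and search window (388 to 729 genes at an unadjusted p under 0.05), and 0 to 1 on leaving out 1 library, the 1 being without library E. The fit up to a mean of 350, added after the data were seen, called 18 genes, 4 to 37 on leaving out 1 library (5, 4 and 9 without A, B and C and 10, 37 and 7 without D, E and F), 35 after centring on genes of like length and 2 without the mean-variance trend. In these fits *Tfb1m* had a log2 difference of 0.21 to 0.52 with adjusted p-values of 0.264 to 0.806, *Polg2* of -0.24 to -0.01 with 0.667 to 0.987 and *Mgme1* of 0.06 to 0.28 with 0.463 to 0.923. No value turned its direction where it had passed a threshold. No paired analysis was possible because the recovered libraries carry no sample number. The tests run here were limited to genes whose reads could be recovered, which leaves *Vdac1*, *Vdac2*, *Polg* and *Ssbp1* without one.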
